A study of Homo sapiens with 4 samples.

Results

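HGC-27 is an established human cell line grown from a lymph node metastasis of an undifferentiated gastric carcinoma. The values below describe the expression of the line itself, in cells infected with a lentivirus that carried a control shRNA (a scrambled hairpin). The members were the 2 control shRNA libraries of the 4 libraries in the series and all 63568 gene identifiers listed in each. The other 2 libraries came from cells infected with a virus against USP47, a deubiquitinating enzyme, and were not compared here. All cells were grown in RPMI medium with FBS and were infected, so no uninfected culture stands beside them. The 2 libraries were described as biological duplicates and came from 1 cell line. Each was a bulk library, in which a low level in every cell and a high level in few cells cannot be told apart. Paired values are given in the order of replicate 1 and replicate 2.

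Gastric epithelium is a sheet of polarised cells joined by E-cadherin and by tight junctions, with keratins 8, 18 and 19 as its intermediate filaments, and it secretes mucins, trefoil factors and digestive enzymes. Mesenchymal cells instead rest on vimentin filaments, deposit collagen and move singly. Transcription factors of the SNAI, ZEB and TWIST families repress junction genes when epithelial cells take on mesenchymal features, the process called epithelial-to-mesenchymal transition (EMT).

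Levels are given as TPM, a measure of reads per base of gene, scaled to the same total in each library. A gene was called detected when its TPM was at least 1 in both libraries. Among nuclear protein-coding genes, 11576 of 19475 were detected (59.4%), against 20270 of all 63568 identifiers (31.9%). The libraries held 16302068 and 19529469 assigned counts. Of the nuclear protein-coding genes, 5143 had a mean of at least 10 TPM and 271 of at least 100 TPM, and the median was 2.89 TPM. Noncoding rows, rows not matched to the annotation and mitochondrial genes took up most of the TPM scale. Nuclear protein-coding genes thus summed to 22.4% and 20.4% of the total. Where their TPM were rescaled to the full total among themselves, every value rose by 4.47-fold and 4.91-fold and the detected share was 68.6%.

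The 2 libraries were close to each other. Pearson's r of log2(TPM + 1) across 14241 nuclear protein-coding genes was 0.996, a value across genes, which are not independent replicates. The biological coefficient of variation estimated by edgeR was 5.95%. Counts still differed beyond sampling noise, with a chi-square of 4.75 per degree of freedom over 25426 rows, so the libraries were counted as 2 samples. The pooled SD of log2 TPM was 0.49 for genes of 0.1 to 1 TPM, 0.15 for 1 to 10 TPM, 0.10 for 10 to 100 TPM and 0.08 above. This SD was taken around the median log2 ratio of replicate 2 to replicate 1, which was -0.247, -0.196, -0.141 and -0.085 in those bands. Beyond a 95% range of this spread lay folds of 2.55, 1.33, 1.20 and 1.17 from that median ratio. The spread is that of the same gene between libraries. Where it is set below against a difference between genes, it leaves out error from gene length, shared reads and overlapping genes. With 1 group of 2 libraries no test between conditions was possible, and the lists below are described by counts and levels.

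Most listed epithelial genes lay below the threshold, and most listed mesenchymal genes lay above it. The lists were chosen with earlier results of these data known, so the split describes the line and is no test of its identity. Of 50 genes for epithelial junctions, keratins and their regulators, 13 were detected (26.0%), with a median of 0.390 TPM. Of 50 genes for mesenchymal cytoskeleton, adhesion and matrix, 39 were detected (78.0%), with a median of 9.94 TPM. The detected share of all nuclear protein-coding genes was 59.4%. On the log2(TPM + 1) scale the mesenchymal median lay above the epithelial one by 2.94 in replicate 1 and 2.93 in replicate 2, a mean difference of 2.93 ± 0.0046 (SD, n = 2). On the scale rescaled over nuclear protein-coding genes the counts were 29 of 50 for the epithelial list and 41 of 50 for the mesenchymal one, beside 68.6% of all such genes, and the difference of medians was 4.02. Rescaling multiplies every TPM of a library by 1 factor, so it could not turn the direction. The epithelial count more than doubled on that scale.

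The keratins that define simple epithelium were nearly absent. KRT18 had 0 and 1 counts, KRT19 had 0 and 1 counts, and KRT8 had 10 and 19 counts (0.172 and 0.248 TPM). The basal keratins KRT5 and KRT14 had no count in either library. A count of 0 allows up to 3 counts, which for KRT18 would be 0.0801 TPM in replicate 1, and this limit covers counting error only. CDH1, which encodes E-cadherin, was at 13 and 12 counts (0.181 and 0.127 TPM), and EPCAM, an epithelial adhesion molecule, at 12 and 11 counts. Regulators of the epithelial state were uneven. GRHL2 had 1 and 2 counts and the splicing regulator ESRP1 3 and 3, whereas their paralogs GRHL1 (0.794 and 0.743 TPM) and ESRP2 (1.48 and 1.16 TPM) were higher, and ESRP2 was detected. The highest epithelial members were scaffold or desmosome genes. TJP1, a tight junction scaffold found also in non-epithelial cells, had 27.4 and 23.3 TPM, and the desmosomal cadherin DSG2 had 23.96 and 19.97 TPM. PATJ (9.26 and 7.88 TPM), DSC2 (6.64 and 6.08 TPM) and DSP, the desmosomal plaque protein (6.97 and 5.40 TPM), followed. CDH1 was thus more than 100-fold below TJP1, while its own 2 values differed by less than the spread at that level.

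The mesenchymal list was led by matrix and filament genes of different kinds. COL3A1, a fibrillar collagen chain, had 362 and 322 TPM, and BGN, a small matrix proteoglycan, 203 and 203 TPM. VIM, the vimentin filament, had 137 and 122 TPM, S100A4, a calcium-binding protein of motile cells, 131 and 130 TPM, and COL1A1 133 and 126 TPM. These 3 genes lay within the spread of one another and could not be ordered. SERPINH1, the collagen chaperone, had 119 and 113 TPM. Matrix genes of connective tissue were detected at lower levels, among them POSTN (91.9 and 67.0 TPM), LUM (48.6 and 35.2 TPM) and DCN (31.3 and 27.2 TPM). Not every mesenchymal marker was present. CDH2, which encodes N-cadherin, had 3 and 3 counts, CDH11 had none, TGFBI had 2 and 1, and COL4A1, a basement membrane collagen, had 3 and 0. FN1, fibronectin, stood at 6.15 and 5.47 TPM, and COL1A2, the partner chain of COL1A1, at 5.36 and 4.71 TPM, far below COL1A1.

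**Figure D1:**
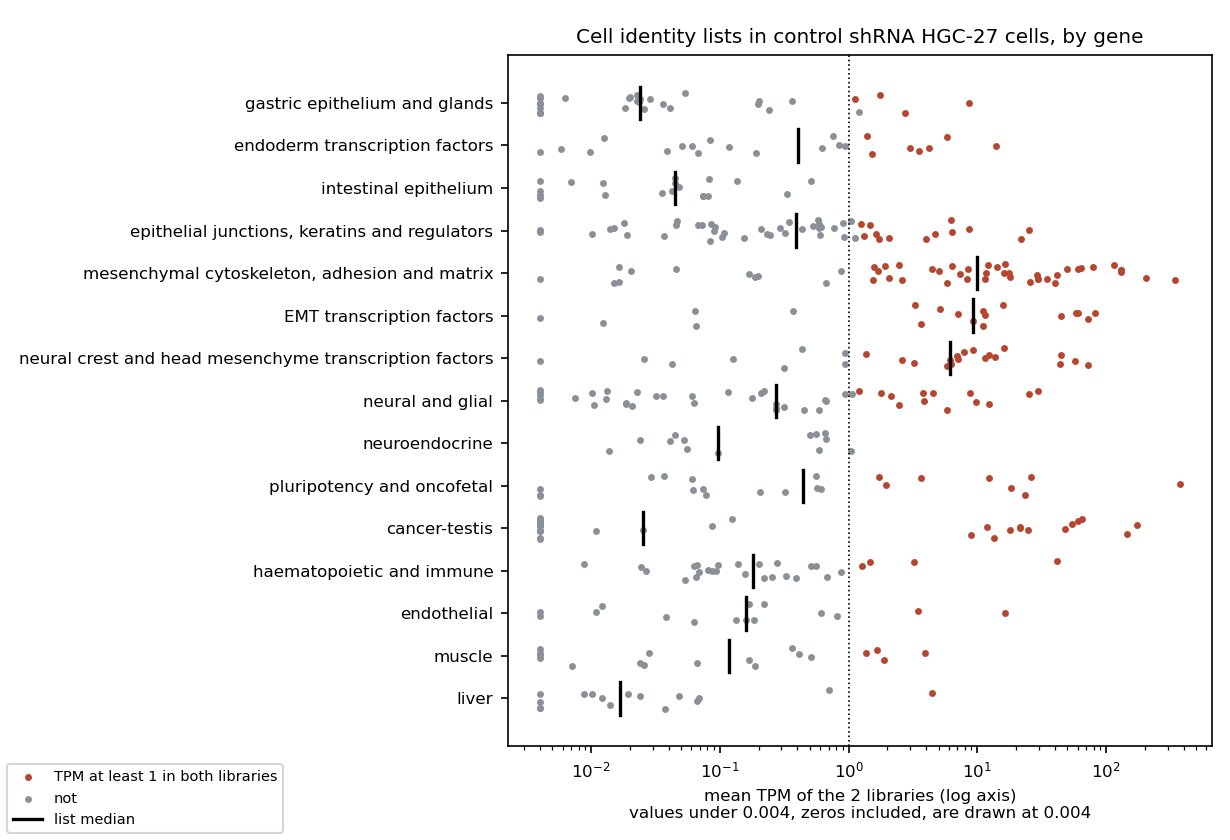
Mean TPM of the 2 control libraries for each gene of 15 identity lists, on a log axis, with 1 point per gene, red where TPM was at least 1 in both libraries and grey otherwise; black bars mark list medians and points are spread vertically at random within a list. The medians of the mesenchymal list (9.94 TPM) and the EMT factor list (9.33 TPM) lie right of the dotted line at 1 TPM, and that of the epithelial list (0.390 TPM) lies left of it.

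Of 19 EMT transcription factors and related regulators, 14 were detected (73.7%, beside 59.4% of nuclear protein-coding genes), with a median of 9.33 TPM. TCF3, an E-protein partner, had 83.6 and 81.1 TPM, and TWIST1 had 78.2 and 66.3 TPM. ID1 (59.8 and 62.2 TPM) and ID3 (57.7 and 58.7 TPM), which bind E-proteins and keep them off DNA, were nearly as high. PRRX1 reached 48.8 and 40.8 TPM. The repressors of E-cadherin formed a middle group, in which ZEB1 had 18.0 and 13.4 TPM, SNAI2 11.3 and 11.7 TPM, and SNAI1 10.1 and 11.98 TPM. SNAI1 and SNAI2 did not differ beyond their spread. ZEB2 was lower, at 5.33 and 4.85 TPM, and TWIST2 had no count, nor did GSC or FOXC2 pass the threshold.

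**Figure D2:**
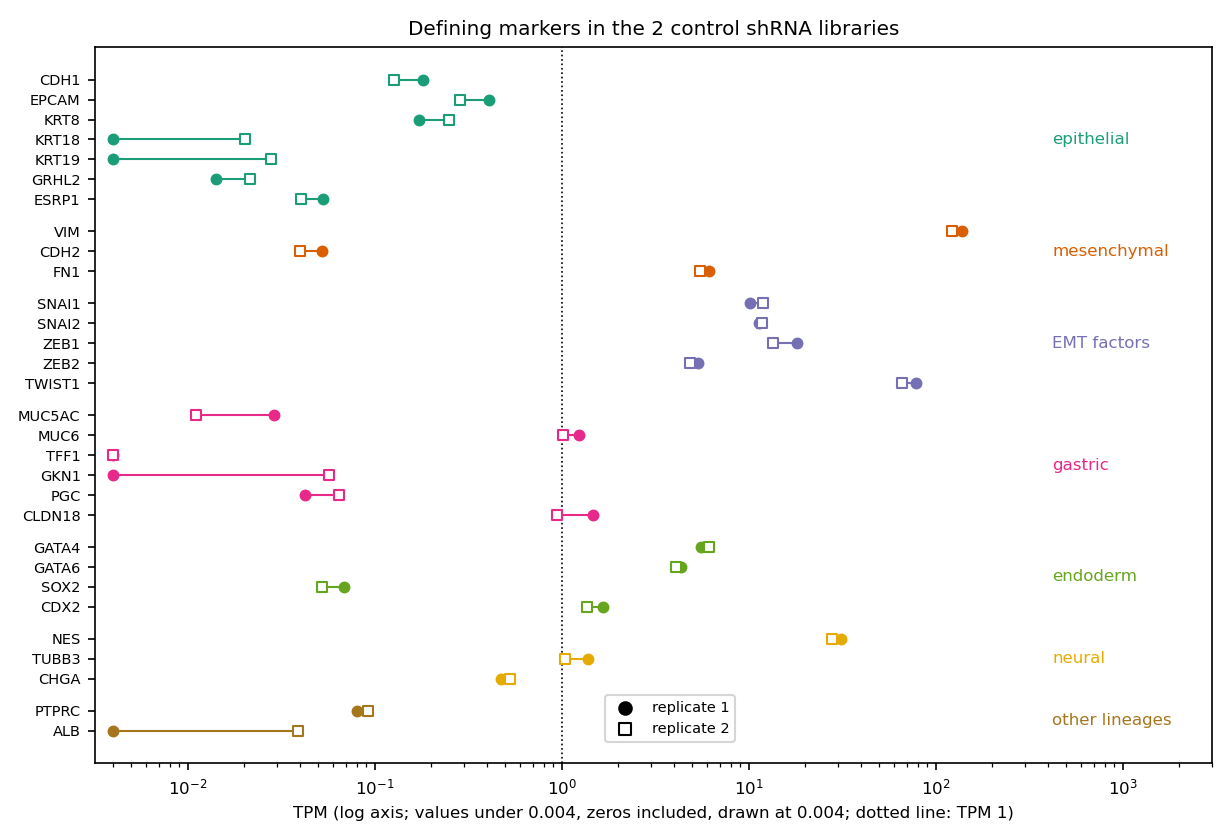
TPM of 30 defining markers in replicate 1 (filled circles) and replicate 2 (open squares) on a log axis, grouped by lineage, with a dotted line at 1 TPM. All 7 epithelial markers lie left of the line in both libraries, whereas VIM, FN1 and the 5 EMT factors lie right of it, and lines between the symbols show the replicate spread.

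The E-box letters CAGGTG, which read CACCTG on the other strand, are the core bound by SNAI and ZEB proteins, and were searched on both strands in promoter windows of 300 bases from RefSeq (GRCh38.p14). They were present in 7231 of 35116 windows (20.6%), in 19 of 36 windows of 26 epithelial genes (52.8%) and in 5 of 48 windows of 35 mesenchymal genes (10.4%). Of the 50 epithelial genes 26 had a window and were searched, and CDH1 was not among them. Several windows can belong to 1 gene, the search was made after the levels were seen, and a match is a description of letters and not a bound site. The windows of a claudin gene and of the polarity gene CRB3 are shown because they hold 5 matches each, in capitals, 5′ to 3′ on the strand of the gene. They lie at chr17:7262429-7262728, minus strand, and at chr19:6464021-6464320, plus strand.
CLDN7: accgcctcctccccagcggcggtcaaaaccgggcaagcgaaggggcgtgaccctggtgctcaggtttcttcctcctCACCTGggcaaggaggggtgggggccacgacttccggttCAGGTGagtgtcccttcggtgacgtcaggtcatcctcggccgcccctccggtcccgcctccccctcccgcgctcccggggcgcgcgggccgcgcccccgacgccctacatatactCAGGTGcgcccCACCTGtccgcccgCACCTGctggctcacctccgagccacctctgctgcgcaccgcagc
CRB3: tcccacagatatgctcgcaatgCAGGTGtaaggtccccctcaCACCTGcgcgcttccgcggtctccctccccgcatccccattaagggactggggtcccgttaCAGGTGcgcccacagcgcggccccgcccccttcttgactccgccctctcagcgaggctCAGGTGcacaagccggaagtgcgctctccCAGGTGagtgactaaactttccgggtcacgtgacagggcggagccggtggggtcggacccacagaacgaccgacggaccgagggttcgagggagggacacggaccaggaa
CLDN7 was detected, at 1.69 and 1.78 TPM, and CRB3, with 3 and 8 counts, was not. The other detected genes with a match were AP1M2, PATJ, DSG2, DSP, OCLN, RAB25, DSC2, TJP1 and TJP3. The other undetected genes with a match were GRHL3, JUP, CDS1, CLDN3, ELF3, KRT5 and SPINT1. The windows of CGN and LSR, both detected, held none, nor did those of the undetected CLDN1, CLDN4, GRHL1, KRT8, MARVELD2 and TP63. A larger part of the detected than of the undetected genes searched thus held a match. The part of these letters in the levels was not tested.

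Gland and pit cell products of the stomach were nearly all missing. Of 30 gastric genes 4 were detected (13.3% beside 59.4% of nuclear protein-coding genes), and 20 had at most 3 counts in each library. The 4 were MUC1, a mucin of many epithelia (9.23 and 7.92 TPM), GHRL, which encodes the hormone ghrelin (3.25 and 2.28 TPM), PSCA, a surface antigen (2.05 and 1.48 TPM), and the gland mucin MUC6 (1.23 and 1.02 TPM). CLDN18, the gastric tight junction claudin, was at 1.46 and 0.944 TPM and so passed in replicate 1 alone. The pit cell mucin MUC5AC had 2 and 1 counts, and TFF1, TFF2 and GAST, for the trefoil factors and gastrin, had none. None of 19 intestinal genes was detected, the highest being PHGR1 at 0.456 and 0.556 TPM.

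Factors that specify endoderm were present in part. Of 22, 7 were detected (31.8% beside 59.4% of nuclear protein-coding genes), or 11 on the rescaled scale. KLF5, a factor of proliferating epithelium, had 14.8 and 13.2 TPM, GATA4 had 5.59 and 6.12 TPM, and GATA6 4.33 and 4.08 TPM. HNF4G (3.86 and 3.17 TPM) and ONECUT2 (3.30 and 2.73 TPM) followed, and CDX2, the intestinal master factor, had 1.67 and 1.36 TPM. SOX2, the foregut factor, had 2 and 2 counts, HNF4A 0 and 1, and SOX17 2 and 1.

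Neural genes were detected selectively. Of 45 neural and glial genes, 13 were detected (28.9% beside 59.4% of nuclear protein-coding genes), with a median of 0.272 TPM, and 23 on the rescaled scale. NES, the progenitor filament nestin, had 31.1 and 27.9 TPM, and CNTN1, a neuronal adhesion molecule, 28.0 and 22.2 TPM. ENO2 had 12.96 and 11.9 TPM, DLG4, a postsynaptic scaffold, 10.0 and 9.42 TPM, and NCAM1 9.58 and 8.11 TPM. Genes of differentiated neurons were split. The synaptic vesicle gene SYT1 (6.60 and 5.05 TPM), MAPT, which encodes tau (2.67 and 2.28 TPM), and GAD1 (1.959 and 1.634 TPM) were detected. DCX, STMN2 and ELAVL4 had no count in either library, MAP2 had 2 and 2, and TUBB3, neuronal tubulin, was detected close to the threshold at 1.39 and 1.04 TPM. None of 13 neuroendocrine genes was detected in both libraries. INSM1, at 1.25 and 0.856 TPM, passed in replicate 1 only, and CHGA, chromogranin A, had 0.471 and 0.527 TPM.

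Transcription factors of neural crest and head mesenchyme were detected in 18 of 26 cases (69.2%, beside 59.4% of nuclear protein-coding genes), with a median of 6.18 TPM. TWIST1, SNAI2 and PRRX1 also stand in the EMT list. Beyond them the homeobox genes MSX2 (56.5 and 57.8 TPM), PRRX2 (45.0 and 42.5 TPM) and MSX1 (15.6 and 16.5 TPM), which pattern limbs and skull, were highest. TBX3 had 13.9 and 13.6 TPM, TFAP2A 13.2 and 11.6 TPM, and DLX1 9.33 and 9.01 TPM. Factors of crest cells themselves were split. ETS1 (8.63 and 7.13 TPM), SOX8 (5.62 and 6.80 TPM), PAX3 (3.30 and 3.19 TPM) and PAX7 (3.03 and 2.15 TPM) were detected, while SOX10 stood at 1.11 and 0.758 TPM and FOXD3 at no count.

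HOX genes, which set position along the body axis, were looked at after their values were seen. Of 39, 30 were detected, beside 59.4% of nuclear protein-coding genes. Of the 16 genes of paralog groups 9 to 13, which act at the posterior end, 15 were detected, with a median of 7.63 TPM, against 15 of 23 in groups 1 to 8, with a median of 1.69 TPM. HOXA13 was highest, at 54.1 and 46.3 TPM, followed by HOXC10 at 23.1 and 21.4 TPM and HOXD10 at 15.9 and 15.6 TPM. HOXD1 and HOXB1 had no count. HOTTIP, the noncoding RNA next to HOXA13, had 46.6 and 39.1 TPM, and HOTAIR, from the HOXC cluster, 14.5 and 11.2 TPM.

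Markers of other cells that a culture might hold were low. Of 28 haematopoietic and immune genes 4 were detected (14.3%), of 15 endothelial genes 2 (13.3%), of 18 muscle genes 4 (22.2%) and of 16 liver genes 1 (6.25%). The share over all nuclear protein-coding genes was 59.4%. PTPRC, the pan-leukocyte antigen CD45, had 8 and 12 counts, and ALB, albumin, 0 and 2. HBA1, an alpha globin gene, stood apart at 42.6 and 40.4 TPM, with its near-identical copy HBA2 at 28.7 and 28.3 TPM, while the beta globin HBB had 2 and 3 counts. The counting can split reads between HBA1 and HBA2, so the 2 levels are uncertain. Detected members included CD4 and NKG7, the vascular genes ENG and ESAM, SYNPO2, TTN, LMOD1 and MYH11 of muscle, and CPS1 of the urea cycle.

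Of 22 pluripotency and oncofetal genes, 8 were detected (36.4% beside 59.4% of nuclear protein-coding genes). HMGA1, an architectural chromatin protein of embryonic and tumour cells, was the highest listed gene of this kind, at 375 and 375 TPM. The 3 IGF2BP genes, which encode fetal RNA-binding proteins, ran from 16.3 to 26.0 TPM over both libraries, and LIN28B, which blocks let-7 maturation, had 3.87 and 3.42 TPM. The core pluripotency factors were not detected. SOX2 and NANOG had at most 4 counts, DPPA4 and ZFP42 none, and POU5F1 0.956 and 0.273 TPM.

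Cancer-testis genes, normally silent outside the germ line, were mostly either high or silent. Of 31, 13 were detected (41.9% beside 59.4% of nuclear protein-coding genes), all with a mean of at least 8.89 TPM. No count in either library was found for 14. CTAG1B, which encodes NY-ESO-1, had 181 and 169 TPM and CTAG2 150 and 143 TPM. MAGEA6 had 66.3 and 62.9 TPM, MAGEA3 60.0 and 60.0 TPM, and XAGE1A 55.8 and 52.5 TPM. MAGEC2, SSX1, GAGE1 and SYCP1 were among those with none. CTAG1A, a copy of CTAG1B, was listed at 0 counts, and reads of near-identical copies such as these, MAGEA3 and MAGEA6 included, may have been assigned to 1 copy or lost.

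Proliferation genes were all detected, 29 of 29, beside 59.4% of nuclear protein-coding genes. They ran from 14.2 TPM for BIRC5 in replicate 2 to 135 TPM for the anaphase activator CDC20 in replicate 1. The replication helicase subunit MCM7 had 110 and 106 TPM, and TOP2A 119 and 86.7 TPM. All 79 cytosolic ribosomal protein genes were detected, beside the same 59.4%, with a median of 156 TPM. RPL36A, at 6.67 and 5.26 TPM, and RPL17, at 7.39 and 7.04 TPM, were the lowest of them.

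Of 68 oncogenes, 56 were detected (82.4%, beside 59.4% of nuclear protein-coding genes). CCND2, a G1 cyclin, was highest, at 229 and 205 TPM, and MYC, the growth-promoting transcription factor, had 163 and 159 TPM. The GTPase RHOA had 112 and 106 TPM, CCND1 59.8 and 54.8 TPM, and the kinase MAP2K2 51.3 and 50.1 TPM. CCND2 exceeded MYC beyond the spread, and CCND3, the third of the D cyclins, was at 5.90 and 7.17 TPM. The GTPase genes NRAS and HRAS had 21.5 and 19.6 TPM and 13.2 and 13.8 TPM. CCNE1, the cyclin of S-phase entry, had 4.18 and 4.00 TPM. No listed oncogene was without a count, and those furthest below the threshold included ROS1 (19 and 19 counts), RET (24 and 19) and KIT (19 and 18).

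Of 69 tumour suppressors, 64 were detected (92.8% beside 59.4% of nuclear protein-coding genes). On the rescaled scale the shares of tumour suppressors and oncogenes were 94.2% and 95.6%, so the lists were not ordered by them. SMARCA4, the ATPase of SWI/SNF chromatin remodellers, had 80.9 and 75.6 TPM, B2M 71.8 and 62.0 TPM, and the giant cadherin FAT1 70.4 and 57.1 TPM. KMT2D (49.2 and 45.0 TPM) and SMARCB1 (46.5 and 44.01 TPM) completed the highest 5. CDKN2A, a CDK inhibitor gene, was present at 39.9 and 36.7 TPM, as were its neighbours CDKN2B (12.02 and 9.26 TPM) and MTAP (9.17 and 7.51 TPM). Members below the threshold included genes with almost no counts. TUSC3, an oligosaccharyltransferase subunit, had 0 and 1 counts, TGFBR2, the type II TGF-beta receptor, 13 and 8, and CDH1 13 and 12. CDKN1C, a CDK inhibitor, had 10 and 22 counts.

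Receptor tyrosine kinases, which pass growth factor signals across the membrane, were detected at about the background rate, 35 of 58 (60.3% beside 59.4%). DDR2, a receptor for fibrillar collagen, was highest, at 64.2 and 50.3 TPM, and PTK7, a Wnt co-receptor without kinase activity, had 38.9 and 36.3 TPM. EPHB4 (26.4 and 26.4 TPM), FGFR3 (24.0 and 24.4 TPM), ROR2 (23.0 and 20.4 TPM) and FGFR4 (20.2 and 19.5 TPM) formed a run in which no neighbours differed by more than the 1.20-fold spread. A second such run held TYRO3, ERBB2, IGF1R and AXL, between 11.6 and 14.1 TPM. MET, the receptor of hepatocyte growth factor, had 7.71 and 5.89 TPM. The families were split. FGFR2 had 9.99 and 8.81 TPM but FGFR1 34 and 28 counts (0.230 and 0.144 TPM), and ERBB2 had 13.6 and 12.8 TPM but EGFR 0.696 and 0.560 TPM. KIT, RET, ALK, FLT3 and the vascular receptors KDR, FLT1, FLT4, TEK and TIE1 were below the threshold, though none of the 58 lacked a count in both libraries.

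**Figure D3:**
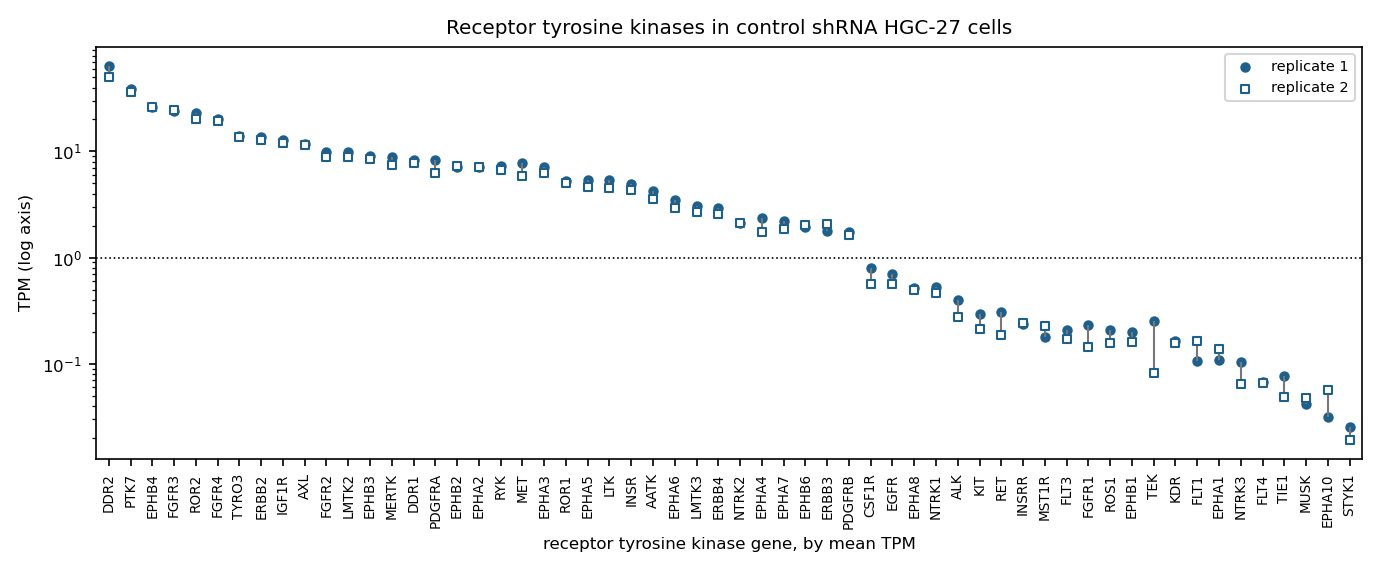
TPM of 58 receptor tyrosine kinase genes in replicate 1 (filled circles) and replicate 2 (open squares), on a log axis and ordered by mean TPM, with a dotted line at 1 TPM. The levels run from DDR2, at 64.2 and 50.3 TPM, to STYK1, with 1 count in each library, and the 35 detected genes lie above the line.

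Ligands of these receptors were detected for 34 of 63 genes (54.0% beside 59.4% of nuclear protein-coding genes). VEGFB had 46.8 and 48.2 TPM, the heparin-binding factor MDK 33.3 and 31.4 TPM, and the ephrin EFNA5 27.0 and 22.8 TPM. IGF2 had 14.7 and 15.3 TPM, beside its receptor IGF1R at 12.7 and 11.99 TPM, and WNT5A, a ligand of ROR2, 13.5 and 12.5 TPM. The EGFR ligands AREG and EREG had no count, and HBEGF, at 1.25 and 1.21 TPM, was just above the threshold. HGF, the ligand of MET, had 22 and 29 counts and was not detected.

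Receptors of the Wnt, Hedgehog, Notch and TGF-beta families were detected in 31 of 41 cases (75.6% beside 59.4%). NOTCH3 had 45.5 and 45.2 TPM and NOTCH2 38.5 and 33.9 TPM. The Wnt receptor FZD2 had 23.6 and 22.2 TPM, the R-spondin receptor LGR4 22.8 and 19.7 TPM, and the Hedgehog receptor PTCH1 21.8 and 20.6 TPM. The last 3 lay within the spread of one another. LGR5, the intestinal stem cell marker, had 0 and 2 counts and FZD10 none. TGFBR1 had 12.8 and 11.7 TPM, whereas TGFBR2 had the 13 and 8 counts given above.

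Of 47 nuclear receptors, 27 were detected, about the background share (57.4% beside 59.4%). RARG, a retinoic acid receptor, had 47.1 and 44.04 TPM, the orphan receptor NR2F6 31.9 and 31.6 TPM, and the thyroid hormone receptor THRA 26.0 and 25.2 TPM. The glucocorticoid receptor NR3C1, found in most cell types, had 0 and 3 counts, and the oestrogen receptor ESR1 10 and 12. NR1H4, NR2E1, RXRG and NR0B2 had no count.

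Of 29 surface proteins that have been pursued as drug targets in gastric cancer, 15 were detected (51.7% beside 59.4% of nuclear protein-coding genes). MSLN, mesothelin, had 33.4 and 31.2 TPM, CD276, an immune checkpoint protein, 31.5 and 30.8 TPM, and FOLR1, a folate receptor, 11.8 and 12.98 TPM. CLDN18 passed in replicate 1 only. CD274, which encodes PD-L1, had 9 and 8 counts, CEACAM5 1 and 0, and CEACAM6 none.

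A list of 13 genes held those the study names for USP47, GLI3 and EMT and the GLI3 paralogs GLI1 and GLI2. Of these, 11 were detected (84.6% beside 59.4% of nuclear protein-coding genes). USP47 had 1357 and 1297 counts, or 10.4 and 7.60 TPM, in these control cells. The Hedgehog effectors GLI3, GLI2 and GLI1 had 21.5 and 19.9 TPM, 14.6 and 12.3 TPM, and 7.27 and 7.56 TPM, in that order and apart by more than their spread, and SMO, the transducer above them, 10.2 and 9.63 TPM. THY1 (8.41 and 8.38 TPM), MMP2 (8.36 and 8.34 TPM), FN1 and SNAI1 were detected at moderate levels, and FBLN5 (2.37 and 1.77 TPM), PDGFRB (1.73 and 1.62 TPM) and PLAUR (1.52 and 1.64 TPM) at low ones. FMOD, at 1.27 and 0.770 TPM, and CLDN1, with 12 and 17 counts, were not detected.

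Noncoding rows, here all rows matched to the annotation as other than protein-coding, held 15.4% and 17.1% of counts but 52.1% and 55.6% of TPM. The 95% Wilson interval of the first share was 15.4201% to 15.4552%, for counting error only. Nuclear protein-coding genes held 73.9% and 72.0% of counts and 22.4% and 20.4% of TPM. The 13 mitochondrial protein-coding genes, led by MT-CO3 at 12344 and 12075 TPM and MT-ND4 at 12396 and 11438 TPM, added 5.56% and 5.63% of counts. Rows with an identifier not matched to the annotation held 5.06% and 5.23% of counts and 17.7% and 16.8% of TPM. Their class is not known here, and they are outside the noncoding share.

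**Figure D4:**
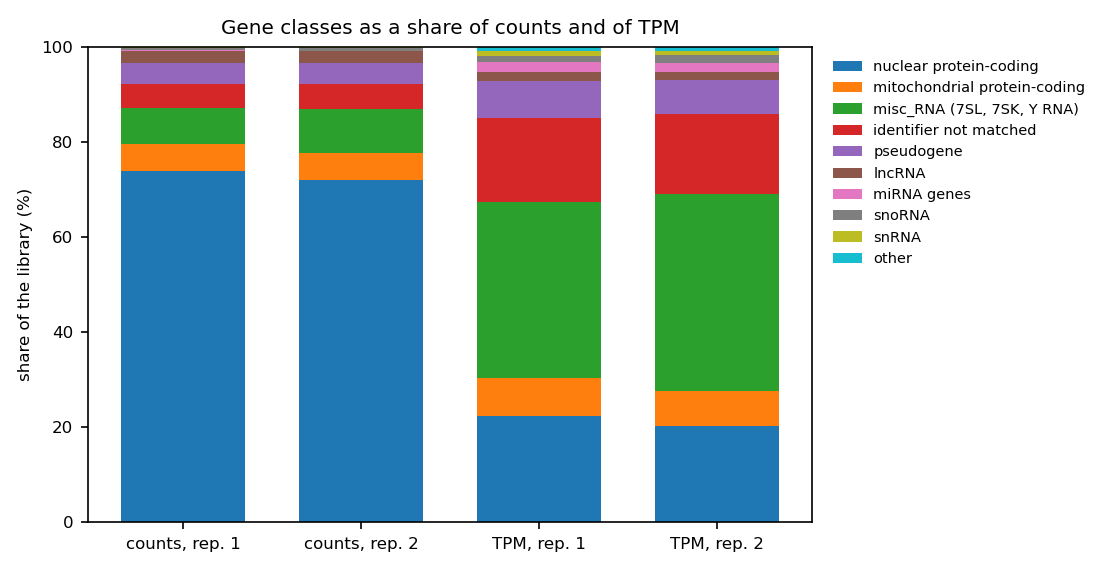
Share of each gene class in the assigned counts (left pair of bars) and in the TPM (right pair) of replicates 1 and 2, in percent of the library. Nuclear protein-coding genes make up 73.9% and 72.0% of counts but 22.4% and 20.4% of TPM, and misc_RNA genes 7.63% and 9.38% of counts but 37.1% and 41.5% of TPM.

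Much of the noncoding TPM came from 7SL, the RNA of the signal recognition particle, which guides nascent secretory proteins to the endoplasmic reticulum. Rows named as 7SL copies, 847 in all, held 7.11% and 8.74% of counts and 33.8% and 37.9% of TPM. RN7SL1 was not matched to any row, so these shares hold no row of that name and may be too low. RN7SL2 was the highest row of the table, with 207654 and 232445 TPM (718103 and 1055955 counts). The second row was an identifier not matched to the annotation, ENSG00000258486, of 300 bases with 158004 and 150322 TPM. It is not in the 7SL shares above, and whether it is RN7SL1 under another identifier was not tested. RN7SL4P (69478 and 76752 TPM) and RN7SL5P (45054 and 53148 TPM) came next. Together these 4 rows held 48.0% and 51.3% of TPM. In pairwise alignments of the GRCh37 sequences, RN7SL3 matched RN7SL2 at 96.3% of aligned positions, RN7SL5P at 88.0% and RN7SL4P at 86.8%. Copies this alike can share reads, so the split among them is uncertain. The differences of RN7SL4P and RN7SL5P from RN7SL2 lay mostly at the end of their sequences. The percentages over whole rows therefore do not rank the copies by the reads they can share. RN7SL3 had the fewest counts of these copies, 16985 and 24619.

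Other small or non-polyadenylated RNAs were present, although the labels name polyA RNA. RN7SK, a repressor of transcription elongation, had 11266 and 13064 TPM, and the nucleolar RNA SNORD3A 4598 and 6459 TPM. The microRNA gene rows MIR3687, of 61 bases, and MIR3648, of 180 bases, had 9851 and 8934 TPM and 5087 and 5300 TPM. Their counts were 6997 and 8336, and 10662 and 14593. Whether these reads came from microRNA or from a longer RNA across the rows was not tested. Of 39 replication-dependent histone genes, whose mRNAs mostly lack a poly(A) tail, 32 were detected, beside 59.4% of nuclear protein-coding genes. H4C11 was the highest nuclear protein-coding gene, at 1848 and 2162 TPM. The 7SL, 7SK and SNORD shares were all higher in replicate 2, at 8.74%, 0.509% and 0.573% of counts against 7.11%, 0.404% and 0.388%. In the opposite direction, as a fixed TPM total requires of the other rows together, the median detected nuclear protein-coding gene had a log2 ratio of replicate 2 to replicate 1 of -0.17 in TPM. The part of RNA selection in the levels of single genes was not tested.

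After H4C11, RPL41 had 1697 and 1631 TPM, the elongation factors EEF1A1 and EEF2 had 1231 and 1062 TPM and 1137 and 1047 TPM, and the chaperone HSP90AB1 844 and 715 TPM. RPS2, H1-5, TMSB10, HIST2H2AA3, H2AC20, RPL7A, ACTB, YBX1, RPL13A, H4C3, GAPDH, PTMS, H1-2, ENO1 and SCD, a fatty acid desaturase, made up the rest of the highest 20, from 782 down to 412 TPM. The processed pseudogenes RPL41P1 (7113 and 7043 TPM) and EEF1A1P5 (2074 and 1836 TPM) stood above their parent genes in TPM, which divides by length. In counts EEF1A1 was higher, with 85173 and 96581 over 5944 bases, against 41975 and 48806 over 1738 for EEF1A1P5. RPL41P1 had 25345 and 32964 counts over 306 bases, and RPL41 21496 and 27135 over 1088. The parents and copies share most of their sequence, so neither level is certain, and ribosomal protein pseudogenes together held 3.02% and 2.91% of TPM.

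Of 51 named noncoding RNAs, 39 were detected. MALAT1, a nuclear speckle RNA, had 617 and 507 TPM, SNHG29 158 and 141 TPM, and NEAT1, the scaffold of paraspeckles, 159 and 134 TPM. TERC, the telomerase RNA, had 122 and 125 TPM, while TERT, its protein partner, had 17 and 23 counts. PVT1 (101 and 84.7 TPM), GAS5 (94.3 and 81.9 TPM) and the snoRNA hosts SNHG3 and ZFAS1 followed. Imprinted RNAs were low, with H19 at 0.672 and 0.418 TPM and MEG3 at 1 and 0 counts. Over all annotated lncRNA genes, 2722 of 12818 were detected (21.2%).

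Few genes differed widely between the 2 control libraries. Of 16768 genes with at least 50 counts summed over both, 67 differed by more than 2-fold in TPM. The lowest log2 ratios of replicate 2 to replicate 1 were those of NCBP2-AS1 (-1.43), RPL12P15 (-1.36), MIR1302-2HG (-1.35), GOLGA2P4 (-1.35) and RGS13 (-1.32). The highest were those of RN7SL546P (2.50), ZDHHC20-IT1 (1.81), HNRNPDP1 (1.30), a Y RNA copy (1.26) and KIF21B (1.12). These 10 rows had at most 126 counts in a library. Of 47 defining markers matched to the annotation, 25 have an annotated gene on the opposite strand that overlaps them, and whether the counting used strand is not given in the sources used here, so reads of such pairs cannot be told apart.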

How the data were processed

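RNA-seq of 2 control shRNA HGC-27 libraries was analysed. Per the labels, polyA RNA was extracted with TRIzol and made into stranded libraries for an Illumina NovaSeq. The study's methods name another library kit, and triplicates where the design text gives duplicates. According to the methods, reads were trimmed, aligned to hg19 with STAR 2.7.5c and cleared of duplicates and low-quality reads with SAMtools 1.9; the submitters' processing notes also list featureCounts, Picard 2.23.3, deepTools 3.5.0.97, DESeq2 1.26.0 and a mouse build. The annotation and strand setting of the counting are not given in the sources used here. Removing duplicates can lower the counts of short, abundant RNAs most, but RN7SL2 had 718103 and 1055955 counts on 297 bases. Whether the deposited counts were made after that step was not tested.

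The authors deposited raw counts, FPKM and TPM per Ensembl identifier. FPKM equalled count over length over the library total, with whole-number lengths (tolerance 0.001 bp) in all 38271 rows with a count, and TPM summed to the same total in both libraries over all rows. The library totals of 16302068 and 19529469 counts set the precision of each level.

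Identifiers were matched, without version, to GENCODE annotation lifted to GRCh37. Of 63568 rows, 55665 matched, and 7903 did not. Of 882 distinct symbols in 26 lists, 10 were not matched. The lists and members were chosen with earlier results of these data known. Named were the 20 highest rows overall and among nuclear protein-coding genes, all of 48 defining genes, the 5 highest of each list, cancer and receptor members without a count, genes named by the study with GLI1 and GLI2, and the 5 largest differences between libraries in each direction; other members, among them the low ones, were named after their values were seen. Levels were TPM without a filter on low values, with a pseudocount of 1 on the log2 scale. Dispersion was estimated with edgeR 4.0.16 (TMM, filterByExpr, R 4.3.3) and was tested on simulated data. Python 3.11.15 with pandas 2.3.3 and scipy 1.17.1 was used for the rest. Alternatives were other thresholds (0.5 and 5 TPM, 10 counts), FPKM, TPM rescaled over nuclear protein-coding genes, another pseudocount, and each library alone. Some listed genes and sequences are not reported here.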

Additional observations from a re-analysis of the deposited data

How the results depend on the processing

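All 20 counts of detected genes kept within 1.5 times under FPKM of at least 1. At TPM of at least 5 in both libraries, 10405 of all rows were detected, 1 gastric, 2 endoderm, 5 epithelial, 6 neural, 1 immune, 1 endothelial, 0 muscle, 0 liver, 5 oncofetal and 22 receptor tyrosine kinase genes. At 0.5 TPM the counts that moved were 11 endoderm, 23 epithelial, 5 neuroendocrine, 4 endothelial and 2 liver genes. With at least 10 counts in both libraries they were 11 endoderm, 1 intestinal, 31 epithelial, 25 neural, 6 neuroendocrine, 8 immune, 8 endothelial and 2 liver genes. With TPM rescaled over nuclear protein-coding genes they were 11 endoderm, 2 intestinal, 29 epithelial, 23 neural, 6 neuroendocrine, 11 immune, 4 endothelial, 7 muscle and 2 liver genes; this setting multiplies every TPM of a library by 1 factor, so that only the threshold moves. The cause of the other moves was not tested. The mesenchymal, EMT, neural crest, cancer-testis, oncogene and tumour suppressor counts moved by less than 1.5 times under all of these. Using 1 library in place of both moved 1 list count past 1.5 times, neuroendocrine genes, which ran from 0 to 1; smaller changes included 14 and 15 epithelial genes, and all rows ran from 21215 to 22185.

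The difference of mesenchymal and epithelial medians on the log2 scale was 4.30 with a pseudocount of 0.1, 2.67 in FPKM and 4.02 on the rescaled scale. These 3 settings keep the order of genes within a library and could not turn its direction. The difference was 3.09 over genes with at least 10 summed counts and 2.49 between means, in the same direction. The mean noncoding share of the 2 libraries was 16.3% of counts and 53.8% of TPM. It was 9.06% of counts without rows named as 7SL copies and 21.4% with unmatched identifiers added. The biological coefficient of variation was 6.24% with total counts alone and 6.10% without a filter. No paired analysis was possible because the values come from 1 group and no test between groups was made. Depth limits the low genes: 2.55-fold between libraries at 0.1 to 1 TPM, taken from the median ratio of that band, lay within the spread.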
